A study of Mus musculus with 1152 samples.

Results

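The solute carrier (Slc and Slco) genes of lymphatic endothelial cells (LECs), taken from the nasopharyngeal plexus of aged mice, are described here. Members were all genes whose symbol begins with Slc and a digit, or with Slco, and that had a value above 0 in at least 20% of the cells analysed. Slc40a1 was left out by the rule and was detected in 60 cells. The rule gave 95 members, which were 32.1% of the solute carrier genes in the table. Of all 23168 genes, 31.2% passed the same limit, so solute carriers passed it about as often as other genes. Of the other solute carrier genes, 14 were detected in 0 cells and the rest in 1 to 130 cells. Detection chose the members, so their shares of cells are a description. Just inside the limit were Slc35a5 in 20% of cells, Slc30a6 in 20.3% and Slc17a5 in 20.7%. Just outside were Slc30a5 and Slc35b3 in 19.8% each and Slc35d2 in 19.2%.

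All cells belonged to a single group. They were labelled as aged nasopharyngeal LECs of the C57BL/6 strain, with no number of weeks, no treatment and no transgene in the labels. Per the study's methods, mucosa from mice of both sexes was pooled, and cells positive for CD31 and podoplanin were sorted 1 per plate well for Smart-seq3, a full-length single-cell RNA method. The labels do not tie cells to animals. The cells are therefore 1 pooled sample, and no test between conditions was possible. Shares of cells carry exact (Clopper-Pearson) 95% intervals, which cover counting error only. Levels are means of ln(1 + reads per 10000), called ln level below, with the SD over cells. The lymphatic markers Flt4, Mmrn1 and Prox1 were detected in 100%, 100% and 97.1% of cells. Of 6 haematopoietic markers the most frequent were Fcer1g in 9.60% and Lyz2 in 5.79%, with Ptprc in 0.915%. No marker of mural cells, glia or epithelium passed 4.57%, and Epcam was at 0. Of 5 fibroblast markers, Dcn was in 30% of cells, while Col1a1 was in 2.44%.

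Solute carriers are membrane proteins that move ions, nutrients, metals, nucleosides and metabolites across the plasma membrane or the membranes of mitochondria, lysosomes, endoplasmic reticulum and Golgi. Most are driven by an ion gradient or by the gradient of the solute itself, in contrast to pumps that split ATP. Lymphatic endothelium lines vessels that take up interstitial fluid and its solutes. Its capillary cells are loosely joined and open to that fluid, collecting vessels conduct it, and valve cells, exposed to turning flow, keep it from running back.

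The sequences before the annotated start of 4 members are printed first. Slc41a1 and Slc5a3 had the largest differences between cell classes, Slc2a1 is the glucose carrier GLUT1 of endothelial barriers, and Slc10a6 was the plasma membrane carrier with the highest level per length. Of the 250 bases before the RefSeq start (GRCm38.p6), those that lie in an annotated exon were left out, and capitals mark the motifs searched. The stretches are chr1:131827762-131827976 on the plus strand, chr16:92058072-92058269 on the plus strand, chr4:119108495-119108710 on the plus strand and chr5:103629404-103629653 on the minus strand. They are written 5′ to 3′ on the strand of the gene. The RefSeq start of Slc41a1 lies inside the gene span that GENCODE gives, so its stretch is upstream of the RefSeq start only. The 52 bases left out next to the start of Slc5a3 lie in exons of Mrps6 and Gm49711. The stretch printed for Slc5a3 thus lies before exons of these genes too and does not belong to Slc5a3 alone.
Slc41a1: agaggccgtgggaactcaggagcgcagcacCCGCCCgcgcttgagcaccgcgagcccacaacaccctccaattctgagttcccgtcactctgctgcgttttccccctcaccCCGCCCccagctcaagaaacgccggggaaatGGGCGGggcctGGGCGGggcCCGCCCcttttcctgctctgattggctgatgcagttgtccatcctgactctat
Slc5a3: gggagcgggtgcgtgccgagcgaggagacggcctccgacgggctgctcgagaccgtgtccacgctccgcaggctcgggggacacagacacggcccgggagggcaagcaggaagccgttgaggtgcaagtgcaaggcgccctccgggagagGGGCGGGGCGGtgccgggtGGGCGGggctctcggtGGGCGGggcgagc
Slc2a1: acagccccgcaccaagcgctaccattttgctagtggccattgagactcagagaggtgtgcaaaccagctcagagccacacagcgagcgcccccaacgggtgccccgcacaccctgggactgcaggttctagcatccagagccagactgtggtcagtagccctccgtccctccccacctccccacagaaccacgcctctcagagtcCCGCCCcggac
Slc10a6: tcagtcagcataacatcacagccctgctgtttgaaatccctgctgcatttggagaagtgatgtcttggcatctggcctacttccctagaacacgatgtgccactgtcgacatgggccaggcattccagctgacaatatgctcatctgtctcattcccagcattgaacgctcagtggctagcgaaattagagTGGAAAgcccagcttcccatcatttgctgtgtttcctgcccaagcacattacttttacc

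The stretches of Slc41a1, Slc5a3 and Slc2a1 were rich in G and C, at 64.7%, 75.8% and 63.9%, and that of Slc10a6 was at 49.2%. They held the GC box letters GGGCGG, on either strand, 5, 4 and 1 times, while the stretch of Slc10a6 held none and held the NFAT letters TGGAAA 1 time. RefSeq windows were found for 79 of the 95 members. The GC box was in 52 of these 79 windows (65.8%), beside 63.6% of 5516 genes that were detected in as many cells and 32.9% of all 27025 genes. TGGAAA was in 16.5% of members and 14.5% of equally detected genes, the GATA letters AGATAA in 3.80% and 5.20%, and the E box letters CACGTG in 10.1% and 9.21%. The forkhead letters GTAAACA were in 0 of 79 windows and in 2.03% of equally detected genes, and the CRE letters TGACGTCA in 1.27% and 2.86%. Shares over all genes were 18.7% for TGGAAA, 10.3% for AGATAA, 6.05% for CACGTG, 3.09% for GTAAACA and 1.62% for TGACGTCA. None of these motifs contains another, and 2 of the GC boxes of Slc5a3 share bases.

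The members were mostly low and patchy, with a few that nearly every cell carried. The median member was detected in 34.8% of cells, whereas the median of the 7238 genes that passed the same limit was 41.9%. The median ln level over members was 0.22. Per kilobase of exon, the median level was 0.0920 reads per 10000 for members and 0.110 for the 7165 equally detected genes with a known length. Of the members, 26 were detected in over 50% of cells, 6 in over 90% and 36 in under 30%. A cell had reads of 12 members at the lowest, 40 at the median and 75 at the highest. At an even depth of 20000 reads these numbers were 5, 30 and 55, over the cells deep enough. All members together took 0.950% of a cell's reads at the median, between 0.212% and 1.76%. The 3 members with the most reads held 20% of the members' reads and the top 10 held 48.2%.

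**Figure D1:**
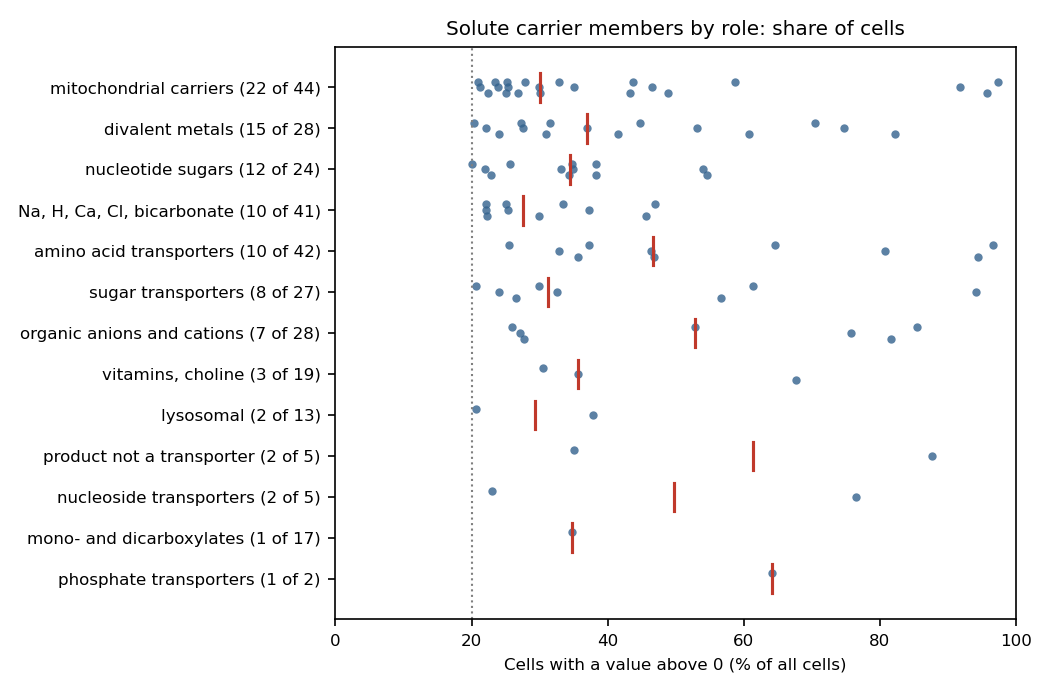
Share of all cells with a value above 0 (x axis, %) for each of the 95 members, grouped by role, with the members of all solute carrier genes of that role in brackets. Each point is 1 member, the red bar is the median of the role and the dotted line is the limit of 20% that chose the members. Mitochondrial carriers spread from 21% to 97.4%, and 22 of 44 were members.

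Mitochondrial carriers (the Slc25 family) were the largest role group, with 22 members of 44 genes, a median share of 30% and a median ln level of 0.19. Their range was the widest of any role, from Slc25a46 in 21% of cells to Slc25a3 in 97.4%. Slc25a3, the mitochondrial phosphate carrier, had an ln level of 1.92 ± 0.78 (SD over all cells), and its reads per 10000 were 0 at the lowest, 6.95 at the median and 77.2 at the highest. Slc25a4 and Slc25a5, both of which exchange ADP and ATP across the inner mitochondrial membrane, had ln levels of 1.59 ± 0.69 and 1.44 ± 0.82. Per kilobase, Slc25a5 was the highest of all members at 2.84 reads per 10000, followed by Slc25a4 at 2.12, while Slc25a3 was at 1.41. Slc25a4 also varied less between cells than any other member at its level, as its variance lay furthest below the trend over all genes (rank 95 of 95 members). The other 19 members of the family were at 0.467 reads per 10000 per kilobase or less. Among them were Slc25a11, the oxoglutarate carrier, in 48.9% of cells, Slc25a1, the citrate carrier, in 25.3%, and Slc25a20, the carnitine and acylcarnitine carrier, in 29.9%.

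Amino acid carriers had 10 members of 42 genes, with a median share of 46.6%. Slc38a2, a sodium-coupled carrier of small neutral amino acids, was detected in 96.6% of cells (95 to 97.9) at an ln level of 1.58 ± 0.90. Slc3a2, the heavy chain that brings several amino acid exchangers to the cell surface, was in 94.4% (92.3 to 96) at 1.56 ± 0.83 and 1.55 reads per 10000 per kilobase. Its light chains were much rarer. Slc7a7 was the only light chain among the members, in 37.3% of cells, whereas Slc7a6 was in 11.4%, Slc7a5 in 5.49%, and Slc7a8 and Slc7a11 in 0.610% each. Slc43a3, whose product carries purine nucleobases although its family is counted with the amino acid carriers, was in 80.8% of cells at 1.0 ± 0.85. Slc7a1, the carrier of arginine and lysine, was in 46.3% and Slc6a9, a glycine carrier, in 35.7%. The amino acid sensor Slc38a9 of the lysosome was the lowest of the group per kilobase, at 0.0260 reads per 10000.

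Organic anion and cation carriers had 7 members of 28 genes and the highest median share among roles with more than 2 members, 52.9%. Slc10a6, a sodium-coupled carrier of sulfated steroids, was in 85.4% of cells (82.4 to 88) at an ln level of 1.22 ± 0.96 and 2.03 reads per 10000 per kilobase. Its reads per 10000 were 0 at the lowest, 2.52 at the median and 27.9 at the highest. The 3 Slco members, carriers of organic anions such as prostaglandins, steroid conjugates and thyroid hormones, were Slco3a1 in 81.6% of cells (ln level 0.85 ± 0.72), Slco2b1 in 75.8% (0.88 ± 0.89) and Slco2a1, the prostaglandin uptake carrier, in 52.9% (0.47 ± 0.69). The carnitine carrier Slc22a5 was in 27.1% of cells, Slc22a17, a lipocalin receptor, in 25.9%, and Slc10a7 in 27.7%.

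Divalent metal carriers had 15 members of 28 genes, with a median share of 36.9%. The copper carriers Slc31a2, found on endosomes, and Slc31a1, the importer of the cell surface, were in 82.2% (79 to 85) and 44.7% (40.8 to 48.6) of cells. Their ln levels were 1.01 ± 0.82 and 0.30 ± 0.50. The genes lie on chromosome 4, at chr4:62262562-62298411 and chr4:62360727-62391769. Of the zinc importers of the Slc39 family, 8 were members. Slc39a1 was in 74.7% of cells, Slc39a4 in 60.7%, Slc39a14 in 41.5%, Slc39a9 in 36.9%, Slc39a3 in 31.6%, Slc39a13 in 27.3%, Slc39a10 in 24.1% and Slc39a7 in 22.1%. Per kilobase, Slc39a4, known for zinc uptake in the gut, was the highest of them at 0.601 reads per 10000, followed by Slc39a1 at 0.381, and Slc39a7 was the lowest at 0.0120. The ln level of Slc39a4 was 0.65 ± 0.81 and that of Slc39a7 0.03 ± 0.09. At an even depth of 20000 reads Slc39a7 was detected in 4.58% of cells, beside 18.1% for Slc39a13 and 15.7% for Slc39a10. Slc30a7, an exporter of zinc into the Golgi, was in 53.2%. Slc41a1, a magnesium carrier, was in 70.4% of cells (66.8 to 73.9) at 0.70 ± 0.90, and its variance beyond the trend was the largest of the 95 members and ranked 82 among the 7238 equally detected genes.

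Sugar carriers had 8 members of 27 genes. Slc45a3, of a family of proton-coupled sugar carriers, was in 94.2% of cells at 1.33 ± 0.80, and Slc50a1, a glucose carrier of the SWEET type, in 61.3% at 0.64 ± 0.72. Slc5a3, which takes up myo-inositol with sodium and is known for osmotic balance, was in 56.6% at 0.50 ± 0.72. The facilitative glucose carriers of the Slc2 family lay between 0.0866 and 0.136 reads per 10000 per kilobase, whereas Slc45a3 was at 1.17 and Slc50a1 at 1.06. Slc2a1 was in 32.6% of cells (29 to 36.4) at an ln level of 0.23 ± 0.48, Slc2a8 in 24.1% at 0.16 ± 0.40, and Slc2a10 in 20.7% at 0.15 ± 0.40, while Slc2a3 was no member and was in 5.95%. Among 17 mono- and dicarboxylate carriers only Slc16a12, a creatine carrier, passed the limit, in 34.8% of cells at 0.17 ± 0.35. The lactate carriers Slc16a1 and Slc16a3 were in 3.05% and 8.38%, although Bsg, their partner protein, was in 98.9%.

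The role group of nucleotide sugar and acetyl-CoA carriers had 12 members of 24 genes. The 12 members were all of the Slc35 family, with shares from 20% to 54.6%, and were led per kilobase by Slc35b1 at 0.485 reads per 10000. The group was set by family, so a single product in it need not carry nucleotide sugars. Slc35a4 of this family was in 54% at 0.51 ± 0.73. Carriers of sodium, protons, calcium, chloride and bicarbonate had 10 members of 41 genes, none in over 47% of cells, and led per kilobase by Slc8b1, the sodium and calcium exchanger of mitochondria. The potassium and chloride cotransporters Slc12a4 and Slc12a7 were in 47% and 29.9%. The nucleoside carrier Slc29a1 was in 76.5% of cells at 0.74 ± 0.66, and Slc29a4, which carries monoamines and adenosine, in 23% at 0.19 ± 0.51. Slc20a1, a sodium and phosphate cotransporter, was in 64.2% at 0.61 ± 0.75. The choline carrier family gave Slc44a2 in 67.7% and Slc44a1 in 30.5%, and the vitamin C carrier Slc23a2 was in 35.7%. Of the lysosomal carriers, Slc48a1, which moves haem, was in 37.8% and Slc17a5, which moves sialic acid, in 20.7%. Members whose products are not carriers were Slc9a3r2, a scaffold protein, in 87.7% at 1.15 ± 0.82, and Slc7a6os in 35.1%.

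**Figure D2:**
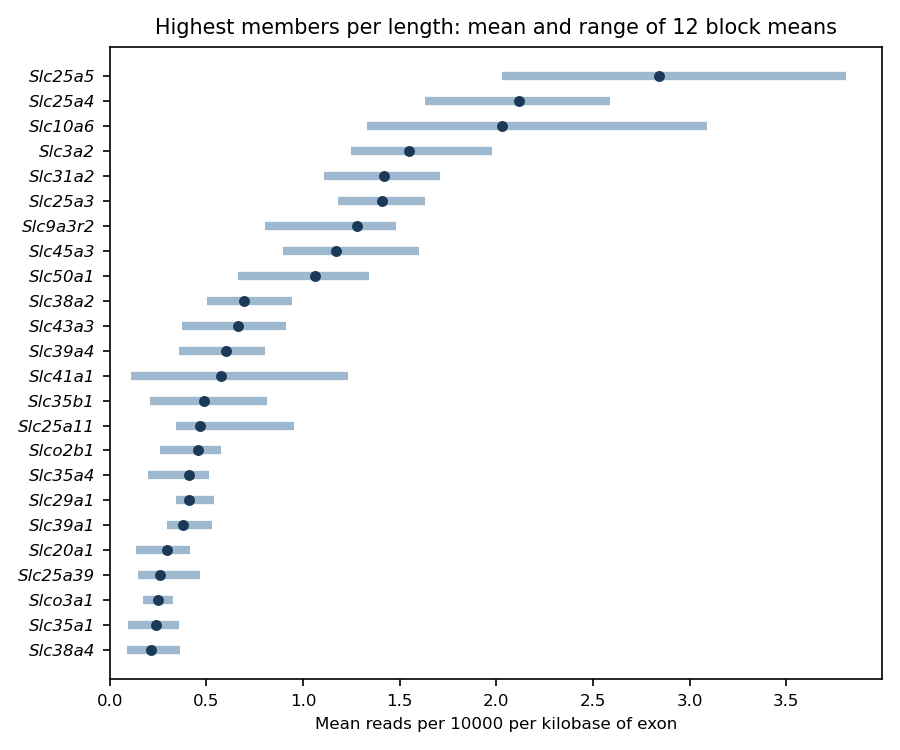
Mean reads per 10000 per kilobase of exon of the 24 members highest per length (points) and the range of their means over the 12 blocks of 96 consecutive cell numbers (bars). Slc25a5 led with 2.84 and block means from 2.03 to 3.81, and its bar overlapped those of Slc25a4 and Slc10a6.

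Neighbours in the order of levels per length had spreads that overlapped. The labels number the cells, and blocks of 96 consecutive numbers, which the labels do not call plates, were used as a spread in place of replicates. In reads per 10000 per kilobase, block means of Slc25a4 ran from 1.63 to 2.59, of Slc10a6 from 1.33 to 3.09, of Slc3a2 from 1.25 to 1.98, of Slc31a2 from 1.11 to 1.71 and of Slc41a1 from 0.112 to 1.23. In all 94 pairs of neighbours in this order the block ranges overlapped. Whole ranges were compared and not the 2 genes within each block, so overlap does not show that their levels were alike. Members further apart did not always overlap, as all block means of Slc25a5 (2.03 to 3.81) lay above all those of Slc3a2. Blocks 8 and 9 held 18 and 20 cells with median depths of 2450279 and 2042788 reads, whereas the other blocks had medians from 52583 to 231193. The median ln level over members was between 0.21 and 0.26 in each of the 12 blocks.

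Cells were then compared by class, clustered with all solute carriers taken out of the genes used, so that members did not define the classes. The 5 clusters were named from marker genes where these sufficed. Ptx3+ capillary-like cells (cluster 0, 25.6% of cells) had higher Ptx3, Stab2, Mrc1, Itih5 and Kcnj8. Ptx3- capillary-like cells (cluster 3, 14%) had higher Fndc1, Ptn, Ccl21a and Reln, while Flrt2, the other of 5 Ptx3- capillary markers, was not higher (log2 difference -0.28). Ptn was raised more in cluster 1 (1.91) than in cluster 3 (0.59). Lyve1, listed as a Ptx3+ capillary marker, was raised in cluster 3 (1.58) and stayed within 1.5-fold in cluster 0 (0.49). Upstream valve-like cells (cluster 4, 11.1%) had higher Cldn11, Gata2 and Neo1. These are 3 of 8 upstream valve markers. Of the others Foxc2, Nfatc1, Gja1 and Itga9 stayed within 1.5-fold and Vwf was lower (log2 difference -1.48), and the downstream valve marker Esam was higher (1.70), so the name of cluster 4 rests on few markers. Cluster 1 (25.2%, led by Ifit3, Ptn and Cmpk2) and cluster 2 (24.1%, led by Apoe, Clu and Bmp4) stayed unnamed, the latter because 3 precollecting and 3 downstream valve markers were raised alike. Median depths were 160771, 65272, 185456, 211398 and 246770 reads in clusters 0 to 4, and median members per cell 36, 41, 40, 40.5 and 45. The mean ln level of 20 dissociation genes was 1.31 in cluster 0 and between 1.58 and 1.60 in the others. Of 6 blood endothelial markers, Plvap and Aqp1 were raised in cluster 0, where the summed ln level was 5.94, against 2.95 to 4.75 in the others, while the defining markers Flt1 and Sox17 were in at most 3.80% and 4.76% of any cluster. The fibroblast marker Dcn was raised in clusters 0 and 1, by 0.76 and 0.91 on the log2 scale, and the summed ln level of the 5 fibroblast markers was 0.484, 0.433, 0.259, 0.0760 and 0.161 in clusters 0 to 4. That of the 6 haematopoietic markers was between 0.0657 and 0.165. The part of depth, dissociation or these markers in the class differences was not tested.

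A member was counted as higher or lower in a class where its mean reads per 10000 in the class, with 0.1 added, was past 1.5-fold that of all other cells. The clusters come from the same cells, so these counts are descriptions and no test was made. In at least 1 of the 3 named classes, 23 of 95 members (24.2%) were higher. Of the 7238 equally detected genes 16.4% were, and of those among them that were not variable genes 14.5%. Lower in at least 1 named class were 29 members (30.5%), beside 21.3% of all equally detected genes and 18.6% of those not variable. Of the 95 members, 19 were themselves among the variable genes before solute carriers were taken out. The 14.5% and 18.6% are therefore not a matched background for the members. The shares over all 7238 equally detected genes are not matched either. Of these genes 6287 were not variable, and their median detection was 41.9% of cells, beside 34.8% for the members. In cells numbered 1 to 480 alone, 30 members were lower beside 32% of all equally detected genes. By cluster, the members' counts were close to or above the background. Higher were 5 members (5.26%) in the Ptx3+ capillary-like cells with a background of 5.54%, 2 (2.11%) in cluster 1 with 2.47%, 7 (7.37%) in cluster 2 with 2.89%, 5 (5.26%) in the Ptx3- capillary-like cells with 4.84%, and 13 (13.7%) in the upstream valve-like cells with 6.51%. Lower were 9 members (9.47%) in the Ptx3+ capillary-like cells with a background of 5.82%, 5 (5.26%) in cluster 1 with 1.92%, 5 (5.26%) in cluster 2 with 6.13%, 15 (15.8%) in the Ptx3- capillary-like cells with 8.86%, and 12 (12.6%) in the upstream valve-like cells with 9.68%. The median log2 difference over all members was between -0.07 and 0.03 in each of the 5 clusters, and over all equally detected genes between -0.08 and 0.01.

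**Figure D3:**
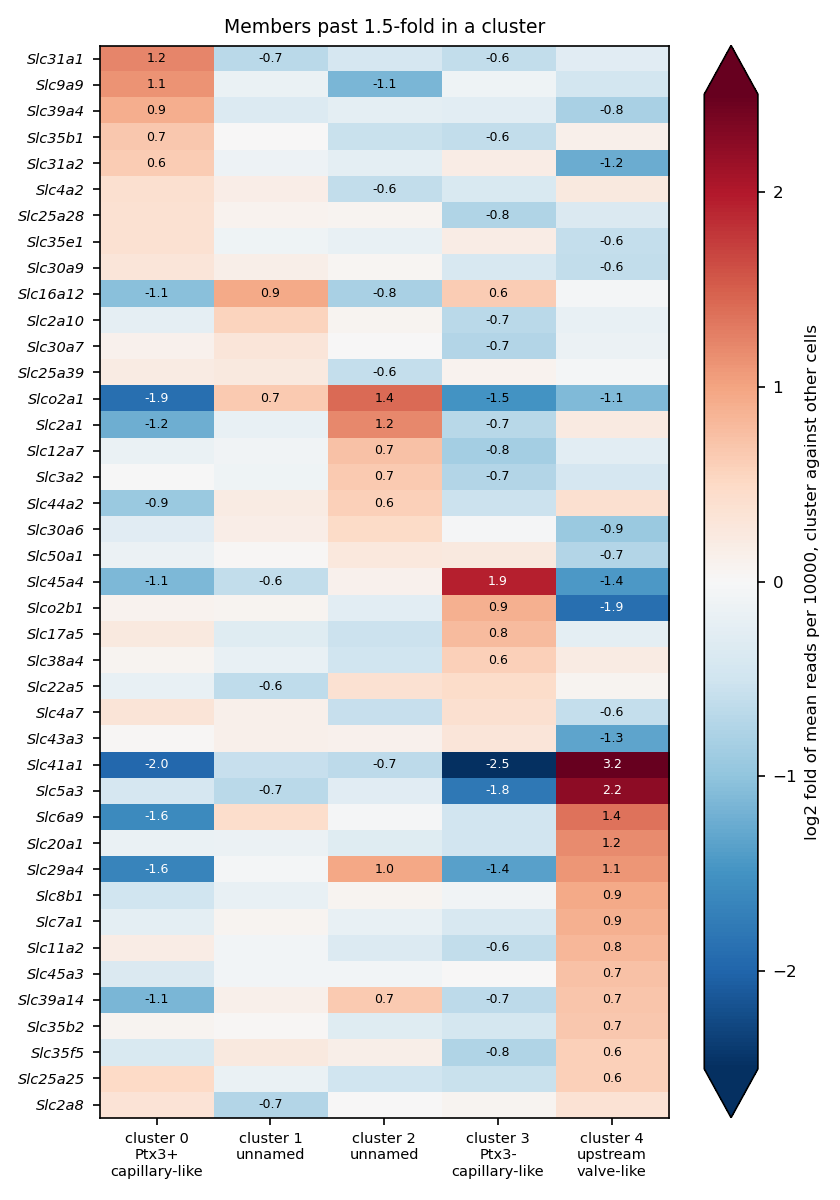
Log2 ratio of mean reads per 10000 in a cluster to that in all other cells (colour, saturating at 2.5 in either direction), for 41 of the 42 members past 1.5-fold in at least 1 of 5 clusters. Values past 1.5-fold are printed, and the largest is 3.2 for Slc41a1 in the upstream valve-like cells.

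In the upstream valve-like cells, carriers of magnesium, myo-inositol, glycine and phosphate were higher. Slc41a1 (chr1:131827493-131848865), the magnesium carrier, had reads per 10000 of 0 at the lowest, 5.09 at the median and 74.2 at the highest over these 73 cells. The medians of the other clusters were between 0.0240 and 0.616 and their highest cells between 3.53 and 52.9, so ranges overlapped while the valve-like cells held the upper end. Its mean was 14.1 against 1.41 in the other cells, a log2 difference of 3.23. It was detected in 95.9% of the valve-like cells (88.5 to 99.1), and at even depth in 89.1%, against 30.5% to 52.4% in the other clusters at even depth. Within the 10 blocks that held at least 3 valve-like cells, the ln level of the class was between 1.56 and 3.0 and that of the other cells between 0.29 and 0.64, and the class was higher in 10 of 10.

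Slc5a3 (chr16:92058322-92087473), the myo-inositol carrier, followed. Its reads per 10000 in the valve-like cells were 0 at the lowest, 3.26 at the median and 29.5 at the highest, while medians in the other clusters did not pass 0.0891. Means were 4.70 and 0.920, a log2 difference of 2.23, and the share of cells at even depth was 85.9%, against 15.9% to 38.5% elsewhere. The class was again higher in 10 of 10 blocks. A small part of the exon bases of Slc5a3 (1.46%) is shared on the same strand with Mrps6, which was itself higher in these cells (log2 difference 1.26), so part of that count is uncertain.

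Further members were higher in the valve-like cells by smaller amounts. Slc6a9 had means of 0.941 and 0.305 (log2 difference 1.36, higher in 8 of 10 blocks), although 27.8% of its exon bases are shared with Ccdc24 on the opposite strand, a gene in 1.52% of all cells. Slc20a1 had 3.37 and 1.42 (1.19, 10 of 10 blocks), and Slc7a1 had 0.946 and 0.468 (0.88, 10 of 10 blocks). The others were Slc29a4, Slc8b1, Slc11a2, Slc45a3, Slc39a14, Slc35b2, Slc35f5 and Slc25a25, the importer of iron and other metals Slc11a2 at 0.83 and Slc45a3 at 0.74. Of these further members, only Slc6a9 was followed under other settings in this class. The Slc45a3 gene lies on chromosome 1 as Slc41a1 does, at chr1:131962967-131982969.

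Lowest in the valve-like cells was Slco2b1, with a median of 0.00559 and a highest cell of 11.5 reads per 10000, against medians of 0.365 to 3.28 in the other clusters. Its means were 0.729 and 2.95, a log2 difference of -1.88. Slc45a4 (-1.43), Slc43a3 (-1.31) and Slc31a2 (-1.25) were also lower, each in 9 of 10 blocks. Solute carriers that were too rare to be members showed differences of the same size, and are named after their values were seen. Slco4a1 (in 10.2% of all cells) was higher in the valve-like cells by 3.32 and Slc6a6, the taurine carrier (17.2%), by 2.24, both on the log2 scale.

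**Figure D4:**
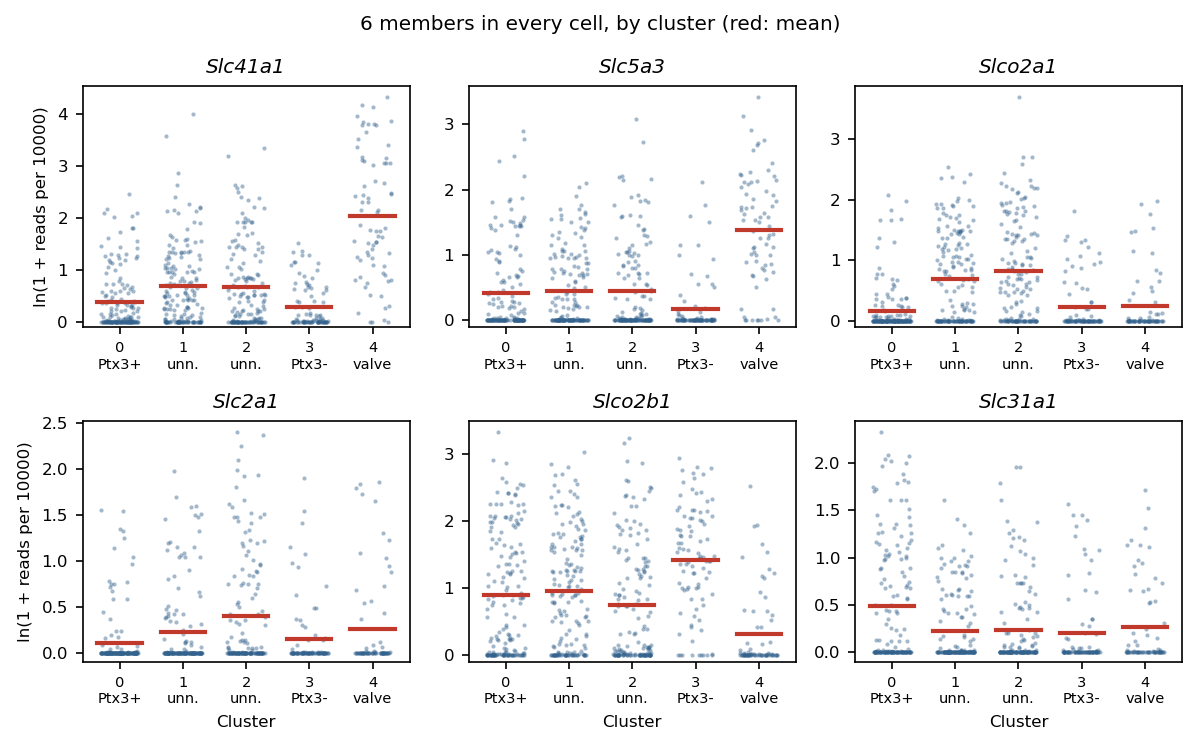
Value of 6 members in each cell (points, y axis ln(1 + reads per 10000), each panel with its own scale) in clusters 0 to 4, with the mean of each cluster as a red bar. Slc41a1 has a mean of 2.03 in the upstream valve-like cells and 0.29 to 0.68 in the others, and cells at 0 occur in every cluster.

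In the Ptx3+ capillary-like cells, both copper carriers were higher. Slc31a1 had a median of 0.0162 and a highest cell of 9.27 reads per 10000, means of 1.09 and 0.408 (log2 difference 1.23), and was detected in 54.2% of cells, at even depth in 43.3%, against 18.3% to 34.4% elsewhere. It was higher in 12 of 12 blocks, with a class ln level between 0.26 and 1.13. Slc31a2 had means of 3.94 and 2.52 (0.63, 10 of 12 blocks), only just past 1.5-fold, and was not followed under other settings. Slc9a9, a sodium and proton exchanger of endosomes, had 0.505 and 0.177 (1.13, 11 of 12 blocks), and the zinc importer Slc39a4 had 2.91 and 1.51 (0.91, 10 of 12 blocks). Slc9a9 came to 0.57 with 0.5 reads per 10000 added, and Slc39a4 to 0.46 at a clustering resolution of 1.5, both within 1.5-fold. For Slc35b1 (0.67), 1 cell reached 53.1 reads per 10000 while the highest cell elsewhere had 8.73. Lower in this class were Slc41a1 (-1.97), Slco2a1 (-1.89), Slc29a4 (-1.65), Slc6a9 (-1.59) and Slc2a1 (-1.22), each in 11 or 12 of 12 blocks.

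In the Ptx3- capillary-like cells, Slc45a4 was the highest member relative to the other cells. It was detected in 59.8% of these cells (49 to 69.9) and in 12.3% to 27.2% of the other clusters, with means of 1.37 and 0.283 (log2 difference 1.94) and a higher class level in 9 of 9 blocks. Slco2b1 had a median of 3.28 and a highest cell of 17.9 reads per 10000, and means of 4.55 and 2.40 (0.89, 8 of 9 blocks), but in cells numbered above 480 the log2 difference was 0.38, within 1.5-fold. Slc17a5 (0.80), Slc16a12 (0.64) and Slc38a4 (0.60) were also past 1.5-fold. Slc17a5 came to 0.35 with 0.5 reads per 10000 added, while Slc16a12 and Slc38a4 were not followed under other settings in this class. Slc41a1 (-2.51), Slc5a3 (-1.79), Slco2a1 (-1.50) and Slc29a4 (-1.35) were lower, and Slc3a2 was lower by a smaller amount, with means of 3.46 and 5.79 (-0.73, 7 of 9 blocks). Slc4a11, a rarer carrier in 12.2% of all cells and named after its values were seen, was higher in this class by 2.38 on the log2 scale.

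Outside the named classes, Slco2a1 (chr9:102988712-103096002), the prostaglandin carrier, and Slc2a1 (chr4:119108711-119137983), the glucose carrier, were highest in cluster 2. Slco2a1 had a median of 0.911 and a highest cell of 39.1 reads per 10000 there, and a median of 0.750 in cluster 1, while the medians of the 3 named classes were 0. Means were 2.38 and 0.823 in and outside cluster 2 (log2 difference 1.42), and the cluster was higher in 12 of 12 blocks, with ln levels from 0.46 to 1.16. In cluster 1 its means were 1.68 and 1.03 (0.65), again higher in 12 of 12 blocks, but it came to 0.53 at a resolution of 1.5, 0.51 with 0.5 added and 0.50 in cells numbered above 480, within 1.5-fold. It was lower in all 3 named classes, by -1.89, -1.50 and -1.11. Slc2a1 was detected in 46.8% of cluster 2 (38.9 to 54.9) and in 22% to 34.2% of the other clusters. Its means were 0.916 and 0.338 (log2 difference 1.21, 9 of 12 blocks), and medians were 0 in all clusters. Slc29a4 (0.96), Slc12a7 (0.73), Slc39a14 (0.66), Slc3a2 (0.65) and Slc44a2 (0.59) were also higher in cluster 2, Slc3a2 with means of 7.56 and 4.80. Slc29a4 came to 0.54 in cells numbered above 480, and of these members only Slc29a4 was followed under other settings. Slc16a12 was higher in cluster 1 with means of 0.502 and 0.212 (0.95, 11 of 12 blocks), and came to 0.49 with 0.5 reads per 10000 added. Lower there were Slc2a8 (-0.74), Slc5a3 (-0.68) and Slc31a1 (-0.68), but with 0.5 reads per 10000 added in place of 0.1 these were -0.36, -0.51 and -0.40, within 1.5-fold.

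**Figure D5:**
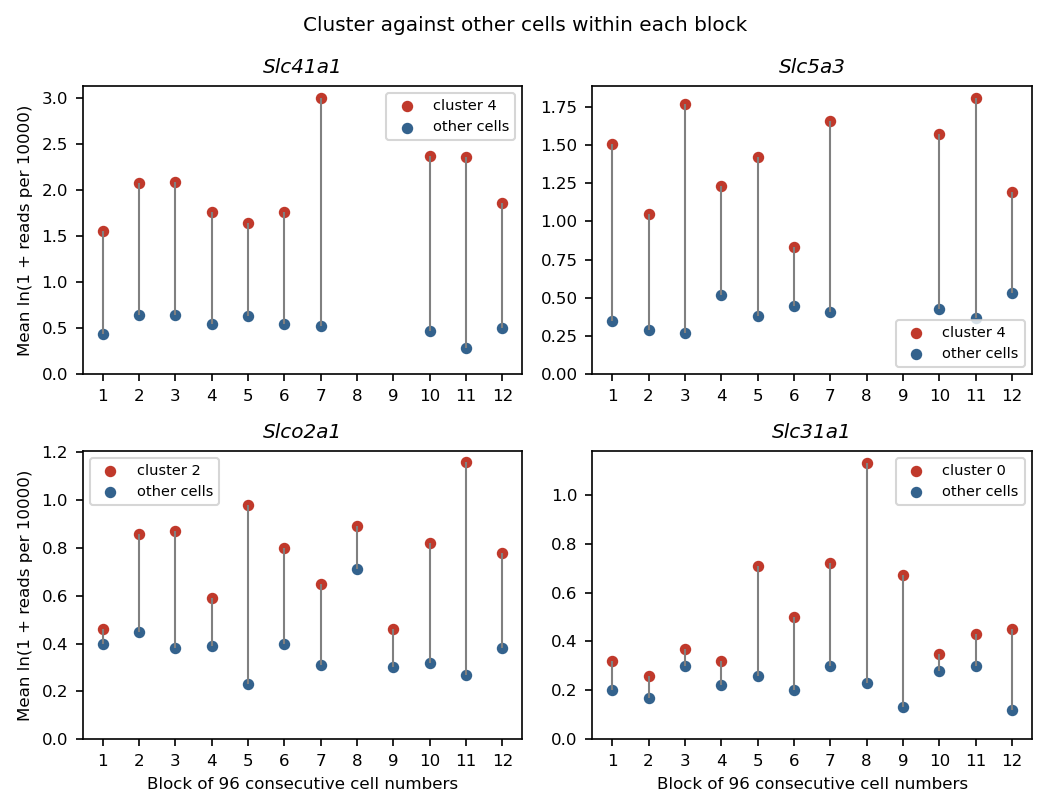
Mean ln(1 + reads per 10000) of 4 members in a cluster (red) and in all other cells (blue) within each block of 96 consecutive cell numbers that holds at least 3 cells of the cluster. Slc41a1 and Slc5a3 were higher in the upstream valve-like cells in 10 of 10 blocks, Slco2a1 in cluster 2 and Slc31a1 in cluster 0 in 12 of 12.

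Of the 10 members highest per length, Slc25a3, Slc25a4, Slc25a5, Slc10a6, Slc38a2 and Slc9a3r2 stayed within 1.5-fold in all 5 clusters. The other 4, Slc3a2, Slc31a2, Slc45a3 and Slc50a1, passed it in at least 1 cluster, as did 42 of all 95 members. For Slc25a4 the cluster means ran from 4.37 to 5.50 reads per 10000. Slc10a6 had cluster means from 3.15 to 5.34, and Slc38a2 from 4.74 to 7.60, with 1 Ptx3+ capillary-like cell at 85. Of the Slco members, Slco3a1 stayed within 1.5-fold, with cluster means from 1.84 to 2.71. Slc50a1 was lower in the valve-like cells (-0.74).

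Genes that work with these carriers were looked at as lists, beside the 31.2% of all genes that passed the limit of detection. Of 8 sodium pump genes, which maintain the gradient that many carriers use, 4 passed the limit of detection, among them Fxyd6 in 100% of cells and Atp1b3 in 84.3%, while Atp1b1 was in 0.457%. Of 14 glycolysis genes 12 passed, from Gapdh in 98.5% to Hk2 in 2.29%. Of 12 genes of the amino acid response 6 passed, with Atf4 in 90.9% and Phgdh in 1.98%. Of 6 zinc and copper buffering genes 5 passed, with the copper chaperone Atox1 in 87.8% and Mt1 in 26.1%. Mt1 was higher in the Ptx3+ capillary-like (1.77) and the upstream valve-like cells (1.05) on the log2 scale. Of 6 glutamine and glutathione genes 3 passed. Of 8 prostaglandin genes only Ptges3 passed, in 57.2%, and Hpgd, which degrades prostaglandins, had reads in 0 cells, where a floor of 3 cells is a share of 0.457% of cells with a read and does not limit how many cells express it. Ptgs1, a cyclooxygenase in 14% of cells, was higher in cluster 2 by 1.30. Of 5 adenosine genes in the table, Adk in 28.7% and Adora2a in 27.1% passed, and of 8 volume and ion kinase genes Wnk1 in 99.1% and Lrrc8a in 91.3%. Of the 2 partner proteins of lactate carriers, Bsg passed and Emb, in 10.1%, did not. Of 13 carriers of blood-brain barrier endothelium, 5 passed, namely Slc3a2, Slc29a1, Slco2b1, Slc7a1 and Slc2a1, and of 7 carriers known from neurons, kidney or liver none did. The highest of the latter was Slc10a1 in 13.7% of cells, and Slc12a1 was at 0.

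The most widely detected members hardly moved together from cell to cell. At even depth, over cells that share 1 pool and 16 members detected in at least 50% of them, Spearman's rho over 120 pairs was between -0.147 and 0.259 with a median of 0.00559. The highest values were 0.259 for Slc43a3 with Slco2b1, 0.212 for Slc10a6 with Slc3a2, 0.183 for Slc31a2 with Slco2b1, 0.137 for Slc25a3 with Slc25a5 and 0.134 for Slc31a2 with Slc43a3. Such weak values in sparse reads are given as a description only. Slc41a1 (in 48.9% of cells at even depth) and Slc5a3 (38.9%), both higher in the valve-like cells, fell under the 50% limit and were not paired.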

How the data were processed

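Per the labels and the study's methods, the authors mapped Smart-seq3 reads with STAR to mm10 and assigned them to genes with featureCounts (Subread), discarded cells with few genes or many mitochondrial reads, and normalised in Seurat 4.1.0. The deposited values are natural log values of 1 plus reads per 10000, although the methods name base 2: linear values sum to 10000 in every cell, and with base 2 to between 2849 and 4938. Taking the smallest value of a cell as 1 read, 100% of values were whole reads within 0.01, so depth was 7046 to 10727631 reads per cell (median 148202). Reads and not molecules were counted, and how multi-mapping reads were treated is not given in the sources used here. Of 1152 labelled cells, 656 were analysed and 496 were not analysed here, and 0 pairs of cells were identical. For even depth, 568 cells were thinned to 20000 reads and 88 shallower cells left out.

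Clusters came from Seurat 5.3.0 in R 4.3.3 by the study's steps (2000 variable genes, 15 principal components, regression of depth, mitochondrial share, dissociation and ribosomal scores), with solute carriers removed, at resolution 0.7, the lowest in steps of 0.1 with at least 5 clusters. A class name needed 3 raised markers (1.5-fold, in 10% of cells), more than any other class and not outnumbered in the top 10 genes. These limits were set with the data seen, names were rebuilt and need not match the study's, and no doublet caller was run because 1 cell was sorted per well. Lengths and positions are from GENCODE M21 (GRCm38, the assembly also called mm10), which holds all 95 members, and promoter sequences from RefSeq (GRCm38.p6). Intervals used scipy 1.17.1. The order of genes by level was taken per kilobase of exon.

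Members needed a value above 0 in 131 cells. Of 296 solute carrier genes, 187 were detected in fewer and 14 in 0. Clusters 0 to 4 held 168, 165, 158, 92 and 73 cells.

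Named genes were the 10 members highest per kilobase, the members next to the limit, the 10 of largest variance beyond a lowess trend, the 3 highest and 3 lowest folds per cluster, the leading member of each role, the Slco, Slc2, Slc16 and Slc39 members, Slc25a3, Slc25a4, Slc25a5, Slc3a2 with its light chains, members that are not carriers, and the listed genes. Other members are named as further members of a role or of a class count. The members and lists were chosen with earlier results of these data known. Read recovery, folds, thinning, correlation and clustering were tested on simulated data. Alternatives covered detection, depth, cells, clustering, fold and the amount added. Values of a few single genes are not reported here.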

Additional observations from a re-analysis of the deposited data

How the results depend on the processing

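The number of members depended on depth and on what counts as detected. As a share of the solute carrier genes it was 8.45% with an ln value above 1, 20.3% at even depth, 50% with a limit of 10% of cells and 20.9% with 30%, in place of 32.1%. The median share of cells was 9.15% with an ln value above 1, 22.2% at even depth and 40.2% after leaving out the 25% of cells poorest in detected genes. The median level was 0.36 as the ln of 1 plus the linear mean and 0.38 from reads summed over cells, in place of 0.22. Members higher in a named class were 23, but 8 at 2-fold, 11 with 0.5 reads per 10000 added and 39 in cells numbered above 480 only. Members lower were 29, but 12 at 2-fold, 13 with 0.5 added, 48 in cells numbered above 480 and 16 with 3000 variable genes, where only 2 classes could be named. The backgrounds moved with them, to 28.8% and 39.8% of all genes in cells numbered above 480, and in cells numbered 1 to 480, where 34 members were higher and 30 lower, to 24.9% and 32%, so that the share of members lower was there no larger than the background. They were 3.47% and 6.08% at 2-fold. The log2 difference of Slc16a12 in cluster 2 turned from -0.81 to 0.08 with 3000 variable genes. Of the other alternatives for the 30 named differences, 25 kept the direction with a difference under 1.5-fold, 4, all of Slc2a10, passed it, and the rest kept direction and side of 1.5-fold. These 30 are the 3 highest and 3 lowest members of each cluster. Differences of other single members were not followed, so a missing limit does not mean that they hold. Without blocks 8 and 9, an alternative chosen after seeing the data, the class counts were 21 and 26. All alternatives for 45 named levels stayed within the SD over single cells. That SD is wide, at 0.48 for Slc2a1 beside a level of 0.23, so this limit could hardly be passed and does not show that levels are stable. As the ln of 1 plus the linear mean, Slc29a4 was at 0.41 in place of 0.19 and Slc20a1 at 0.97 in place of 0.61. In the 10 members highest per length, Slc43a3 took the place of Slc38a2 with the longest transcript and at even depth. Cells at low depth limit all shares, and the causes of these shifts were not tested. No paired analysis was possible because all cells belong to 1 group.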
